A study of Mus musculus with 24 samples.

Results

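The genes described here encode the proteins of the cytosolic ribosome, in livers of mice fed diets low in methionine. They were the rows of the count table whose symbol starts with Rpl or Rps and a digit, together with Rplp0, Rplp1, Rplp2 and Rpsa, leaving out the Rps6k kinases and pseudogenes named with -ps. This gave 84 of 15161 genes, 50 with Rpl and 34 with Rps symbols. By name, 77 are core subunits of the ribosome, 46 of the large (60S) and 31 of the small (40S) subunit. The other 7, called paralogs and related here, are Rpl3l, Rpl7l1, Rpl22l1, Rpl36al, Rps27l and Rps27rt, and Rps19bp1, which binds Rps19 and is not a ribosomal protein. All members but Rpl3l passed the filter on low counts, so 83 were tested.

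RNA was sequenced from the livers of male C57BL6/J mice, 4 months old, with no genetic change named in the labels. All animals ate purified diets in which the protein was either free amino acids (elemental) or casein, and methionine restriction (MR) lowered methionine from 0.86% to 0.17%. The 24 libraries formed 4 groups of 6, a control and an MR group for each protein source. The casein of the MR diet was oxidized and the labels do not say so of the casein control, so for casein the restriction and the oxidation cannot be told apart. The labels do not state that each library is a separate animal, so the p-values reflect only how far these samples scatter, which may be technical. In whole liver, fewer cells of a type and less RNA per cell cannot be told apart.

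A ribosome holds a copy of nearly every one of these proteins, so cells make them in matched amounts, largely by controlling translation of their mRNAs. Those mRNAs start with a run of pyrimidines, the 5′ terminal oligopyrimidine (TOP) motif, through which mTORC1 and the RNA-binding protein Larp1 raise their translation when amino acids are plentiful and hold it back when they are scarce. The measurements here are RNA levels and carry no information on translation.

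The first bases of some of the genes can be read for this motif. The windows printed here run from 40 bases before to 20 bases from the annotated start on, from the RefSeq promoter table of build GRCm38.p6, in which 64 members have an entry. Capitals mark the longest run of at least 5 C or T bases that overlaps the 15 bases on either side of the start. The first set are members that were higher in both MR comparisons, and Rpl27a is the only member called lower in an MR comparison by edgeR.
Rpl12, chr2:32961672-32961731, plus strand: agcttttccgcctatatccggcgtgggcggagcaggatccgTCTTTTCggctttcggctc
Rpl13a, chr7:45128726-45128785, minus strand: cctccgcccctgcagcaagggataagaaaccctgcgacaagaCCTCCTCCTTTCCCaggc
Rps26, chr10:128626487-128626546, minus strand: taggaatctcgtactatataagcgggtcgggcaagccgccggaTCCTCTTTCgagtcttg
Rps18, chr17:33955646-33955705, minus strand: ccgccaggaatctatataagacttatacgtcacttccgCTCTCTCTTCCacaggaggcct
Rpl38, chr11:114668540-114668599, plus strand: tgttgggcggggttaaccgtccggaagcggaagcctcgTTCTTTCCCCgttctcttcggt
Rpl36a, chrX:134585614-134585673, plus strand: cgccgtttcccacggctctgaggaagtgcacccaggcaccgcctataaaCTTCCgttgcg
Rpl27a, chr7:109519155-109519214, plus strand: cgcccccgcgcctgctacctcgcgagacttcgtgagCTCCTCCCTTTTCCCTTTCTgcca
The run was 7 bases long in Rpl12, 14 in Rpl13a, 9 in Rps26, 11 in Rps18, 10 in Rpl38, 5 in Rpl36a and 20 in Rpl27a, so Rpl27a, which was lower in casein MR, has the longest run of these. A run is not the motif itself. Only Rps18 and Rpl38 of these have a C at the annotated start followed by at least 4 pyrimidines, and Rpl27a has a T there. Rps4x and Rps28, also called higher in both comparisons and not printed, have no such run.

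A second set compares Rps27, its retrogene Rps27rt and its paralog Rps27l, because the retrogene repeats the start of the parent gene and the paralog does not.
Rps27, chr3:90213629-90213688, minus strand: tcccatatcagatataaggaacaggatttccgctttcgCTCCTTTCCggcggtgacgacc
Rps27rt, chr9:114982720-114982779, minus strand: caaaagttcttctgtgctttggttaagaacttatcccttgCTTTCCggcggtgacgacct
Rps27l, chr9:66946046-66946105, plus strand: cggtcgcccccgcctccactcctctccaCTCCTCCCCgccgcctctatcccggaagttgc
Rps27 and Rps27rt have a C at the start itself, followed by pyrimidines, and then the same letters, while the run of Rps27l lies upstream of its start (the first of 2 listed).

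Over the 57 core members in the table, 13 (22.8%) had a C at the start followed by at least 4 bases that are all C or T, beside 2.96% of the other genes. CTTTC within 20 bases either side of the start was found in 31.6% of core members and 6.39% of other genes, and CTTCC in 26.3% and 10.2%. Over the whole window of 300 bases and both strands, CCGGAAG, the site of ETS factors such as Gabpa, stood in 42.1% and 9.86%, and AAGATGGC, the site of Yy1, in 8.77% and 3.17%. CACGTG, the E-box bound by Myc, stood in 10.5% and 8.09%, TATAAA in 10.5% and 15.7%, and TGATGNAA, a form of the amino acid response element bound by Atf4, in 0% and 4.52%. All promoters of the table together had 2.51%, 5.49%, 8.81%, 8.86%, 2.75%, 7.15%, 13.6% and 3.97% for these, in the same order. These are matches of letters, and for the 10 members with several annotated starts any start was counted. Members were called with and without the pyrimidine start. This split takes the annotated start as exact. Some genes counted as without it have a run just beside that start, such as Rpl12 (7 bases from base 2) and Rpl13a (14 bases from base 3). The split therefore does not show which mRNAs lack the motif, and no conclusion on the motif is drawn from it. Of the 13 core members with the pyrimidine start, 4 were called higher in each of the MR comparisons, and of the 44 without it 16 and 14 were. Median log2 fold changes were 0.19 and 0.17 with the pyrimidine start and 0.20 and 0.15 without it.

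Together the members took about 2% of the counted reads, and a larger share on the MR diets. In elemental control libraries the share ran from 1.71% over a median of 1.76% to 2.03%, and in elemental MR libraries from 2.06% over 2.27% to 2.58%. In casein control libraries it ran from 1.57% over 1.85% to 1.93%, and in casein MR libraries from 2.20% over 2.39% to 2.60%. Neither MR group overlapped its control group. The mean share was 1.80% ± 0.119 and 2.28% ± 0.182 for elemental control and MR, and 1.80% ± 0.140 and 2.40% ± 0.183 for casein control and MR (SD, n = 6 each).

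A share of reads also depends on what the other genes take. The 20 most abundant genes, none of them a member, took 37.6% ± 0.869 of reads in elemental control, 32.9% ± 0.543 in elemental MR, 36.8% ± 0.626 in casein control and 30.7% ± 0.512 in casein MR libraries, and mitochondrially encoded genes took 14.8%, 12.3%, 14.3% and 12.2%. TMM scaling, which sets libraries to the level of most genes, gave mean factors of 0.937, 1.03, 0.930 and 1.11. CPM, read counts scaled to a common library size, are on the TMM scale from here on. The summed CPM of the members was 19205 ± 1337 in elemental control and 22135 ± 1803 in elemental MR, and 19438 ± 1791 in casein control and 21544 ± 1338 in casein MR. On this scale the groups overlapped, as the plot of the members' share and sum by library shows.

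**Figure D1:**
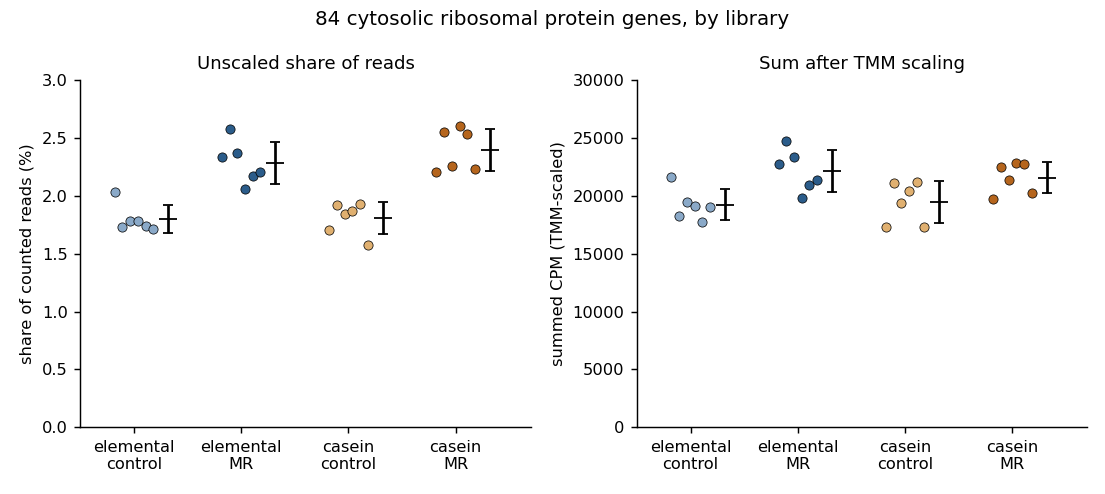
Left, percent of counted reads on the 84 members in each library; right, their summed CPM after TMM scaling. Points are libraries and bars are mean ± SD of 6. In the unscaled share the MR libraries (2.06 to 2.60%) sit above all control libraries (1.57 to 2.03%), and after scaling the groups overlap.

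The libraries held 13458941 to 20762532 counted reads. Liver was checked by a list of hepatocyte genes, of which 13 of 14 were measured, Alb among them. They summed to 134237 to 145511 CPM in elemental control, 111484 to 122837 in elemental MR, 123838 to 142820 in casein control and 82896 to 92841 in casein MR, with none below 1 CPM. Of these 13, 1 was higher and 4 lower in elemental MR and 0 higher and 12 lower in casein MR (2 and 3, and 1 and 8, by library totals), and their part in the members' values was not tested. Summed muscle markers reached 2971 CPM in library C_MR_3438, against at most 88.3 in any other library. Without C_MR_3438, 23 members were called in casein MR in place of 22. Erythroid sums ran from 3097 to 7474 CPM in elemental control, 1349 to 7292 in elemental MR, 1996 to 3679 in casein control and 1307 to 7351 in casein MR. Cholangiocyte sums were 36.1 to 58.9, 20.6 to 33.5, 42.8 to 82.6 and 24.1 to 46.8 CPM in the same order, and of 5 genes tested 1 was called lower in elemental MR and 3 in casein MR, with 0 of 5 above 0 in either. Stellate cell sums were 391 to 469, 332 to 386, 392 to 483 and 352 to 493.1 CPM, with 2 of 10 genes called lower in elemental MR (0 of 10 above 0). In casein MR 1 of these genes was called higher, but only 2 of 10 were above 0 and the median log2 fold change was -0.28. Kupffer cell sums were 509 to 763, 449 to 698, 455 to 769 and 595 to 994 CPM, with 0 of 12 called in either and 12 of 12 above 0 in casein MR. Of all genes tested 13.4% were called in elemental MR and 23.3% in casein MR, which stand beside the counts of these short lists. The part of these cell types in the members' values was not tested. Library E_C_3401 stood apart within elemental control by its high member level (2.03% against at most 1.78% in the others), and without it 38 members were called in elemental MR in place of 29.

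Levels differed widely between members. Rplp1, an acidic protein of the ribosomal stalk, was highest, with a mean of 953 CPM, or 1911 CPM per kilobase of exon. The lowest per kilobase were Rpl3l (0.434), which replaces Rpl3 in muscle, then Rpl24 (4.08), Rpl10a (5.94), Rps6 (6.92) and Rps27rt (8.61). Members have many processed copies elsewhere in the genome, and reads from such stretches may be assigned to a copy, to several genes or to none. The share of 50-base transcript windows that also occur in another annotated gene was 81.7% for Rpl24, 62.6% for Rpl10a, 84.6% for Rps6, 91.1% for Rps27rt and 95.1% for Rpl35, the highest, with a median of 37.1% over the members. It exceeded 50% in 29 members, whose values are uncertain for this reason. Of the core members, 9 of the 27 above 50% were called higher in elemental MR and 7 in casein MR, and 20 and 14 of the 50 at or below it.

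With elemental amino acids, restriction raised the RNA of a part of the family by small amounts. Of the 83 members tested 29 were higher and 0 lower (34.9%; edgeR quasi-likelihood test, adjusted p under 0.05), and this set holds 16 of 46 core 60S and 13 of 31 core 40S genes. Of all genes tested 13.4% were called in this comparison, 6.78% as higher and 6.64% as lower. The log2 fold change was above 0 in 77 of 83 members with a median of 0.19, beside -0.00 over all genes, and the quartiles of the members were 0.13 and 0.24.

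With casein, 21 members were higher and 1 lower (26.5%), namely 9 core 60S genes with Rpl27a lower and 12 core 40S genes. Here 23.3% of all genes were called, 10.6% as higher and 12.7% as lower, so the share of members called in either direction was near that of all genes and the share called higher was above it. The log2 fold change was above 0 in 71 of 83 members with a median of 0.14, beside 0.01 over all genes. Called higher in both comparisons were 17 members, 58.6% of those in elemental MR and 81% of those in casein MR, beside 63.6% and 40.6% over all genes. Among them are Rpl5, Rpl7, Rpl12, Rpl13a, Rpl26, Rpl36a and Rpl38 of the large subunit, and Rps4x, Rps7, Rps10, Rps12, Rps18, Rps19, Rps20, Rps26 and Rps28 of the small subunit. Called higher in elemental MR but not in casein MR were 12 (among them Rpl9, Rpl21, Rpl23, Rpl23a, Rpl37, Rplp0, Rplp1, Rplp2 and Rps15), and in casein MR but not in elemental MR 4 (Rpl13, Rpl22, Rps3 and Rps15a). None of these was called in the test of the difference of the MR effects, casein minus elemental. The remaining 49 members were called in neither.

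Both counts moved when single libraries were left out. The count for elemental MR was 9 without E_MR_3405, 14 without E_MR_3416, 15 without E_C_3417 or E_C_3428, 17 without E_C_3427 and 19 without E_MR_3403, and for casein MR it was 11 without C_MR_3433, 12 without C_C_3437, and 13 without C_C_3407, C_MR_3419 or C_MR_3431. Scaling by library totals alone gave 68 and 73 members higher and 0 lower, with medians of 0.34 and 0.40, but it moved the median of all genes to 0.14 and 0.27. The shares of all genes called in these alternative fits are not given here, so the counts have no background beside them. Relative to the median of all genes the members' median was 0.20 and 0.13 by TMM and 0.20 and 0.13 by library totals.

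**Figure D2:**
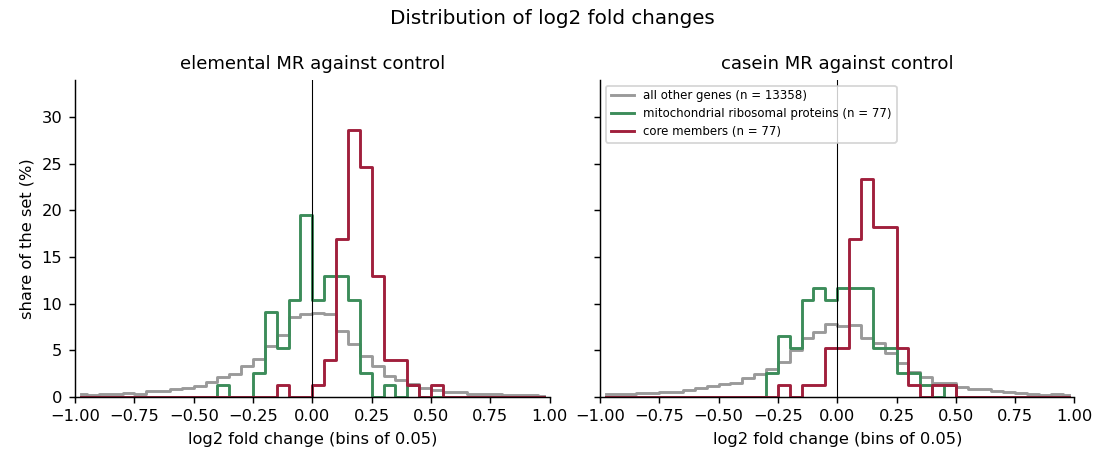
Share of each set of genes (percent) in bins of 0.05 of the log2 fold change, MR against control, for the 77 core members, the 77 mitochondrial ribosomal protein genes and all 13358 other genes tested. Core members lie to the right of 0 with medians of 0.20 (elemental) and 0.15 (casein) on the TMM scale, and the mitochondrial set is centred near 0 with a median of 0.01 in both.

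Single members show how small the shifts were against the spread. Rpl12, a protein at the base of the stalk, had the largest called rise in both comparisons. It ran from 137 over a median of 158 to 207 CPM in elemental control and from 197 over 217 to 260 in elemental MR libraries. In casein control it ran from 119 over 162 to 181 and in casein MR from 191 over 218 to 246. The casein groups do not overlap, and in the elemental comparison E_C_3401 alone reached into the MR range. The log2 fold change was 0.44 ± 0.10 (SE, edgeR adjusted p = 0.00439) and 0.48 ± 0.10 (adjusted p = 0.000853).

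Rpl36a, a protein of the large subunit near the tRNA exit site, ran from 229 over 239.8 to 290.2 CPM in elemental control and from 262 over 323 to 366 in elemental MR. In casein control it ran from 219 over 267 to 314 and in casein MR from 318 over 349 to 375, without overlap. The log2 fold changes were 0.36 ± 0.09 (edgeR adjusted p = 0.005) and 0.41 ± 0.09 (adjusted p = 0.000671). Of its transcript windows 85.5% occur in another annotated gene.

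Rps20, a protein of the head of the small subunit, ran from 436 over 465.9 to 544 CPM in elemental control and from 554 over 607 to 726 in elemental MR, without overlap. With casein it ran from 406 over 469 to 550.0 in control and from 514 over 575 to 690.2 in MR, where the groups overlap. The log2 fold changes were 0.38 ± 0.08 (edgeR adjusted p = 0.00209) and 0.31 ± 0.08 (adjusted p = 0.00588).

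Rps26, which lies along the mRNA at its exit from the small subunit, ran from 527 over 585 to 597 CPM in elemental control and from 624 over 720.3 to 825 in elemental MR, again without overlap. With casein the values were 486, 591 and 673 in control and 662, 698 and 748 in MR (lowest, median and highest), with a single control library, C_C_3436, in the MR range. The log2 fold changes were 0.33 ± 0.07 (edgeR adjusted p = 0.0023) and 0.26 ± 0.07 (adjusted p = 0.00726). Groups without overlap, higher in MR, were found in 2 of 83 members in elemental MR and 3 in casein MR. The shares over all genes were 3.24% and 4.82%, so the members were near them. The members were Rps20 and Rps26 in elemental MR and Rpl12, Rpl36a and Rps19 in casein MR. Another 3.59% and 6.18% of all genes, and 0 members, were lower without overlap.

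The calls of Rpl12, Rpl36a, Rps20 and Rps26 held in both comparisons in each of the 24 fits that left out 1 library. Rpl13a, which has a second role in silencing inflammatory mRNAs, had log2 fold changes of 0.39 ± 0.10 (edgeR adjusted p = 0.00687) and 0.29 ± 0.10 (adjusted p = 0.0304), and the latter was not called without C_C_3407, C_C_3437, C_MR_3419 or C_MR_3433 (adjusted p up to 0.0769) or in a fit of only the casein groups (0.0504). Rps18 changed by 0.33 ± 0.09 (edgeR adjusted p = 0.0106) and 0.25 ± 0.09 (adjusted p = 0.0397), and its call in casein MR was lost in 7 of the 24 fits. These left out C_C_3407, C_C_3421, C_C_3437, C_MR_3419, C_MR_3425, C_MR_3431 or C_MR_3433 and gave an adjusted p of up to 0.101, and a fit of only the casein groups gave 0.0600. Among the Rps18 transcript windows, 79.4% also occur in another annotated gene. Rpl23 was called in elemental MR (0.35 ± 0.10, edgeR adjusted p = 0.0216), but not without E_C_3428, E_MR_3405 or E_MR_3416 (adjusted p up to 0.0633), and was 0.20 ± 0.10 in casein MR (adjusted p = 0.17). Rps3, which also acts in DNA repair, was called in casein MR (0.27 ± 0.07, edgeR adjusted p = 0.0032) and was 0.15 ± 0.07 in elemental MR (adjusted p = 0.129).

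**Figure D3:**
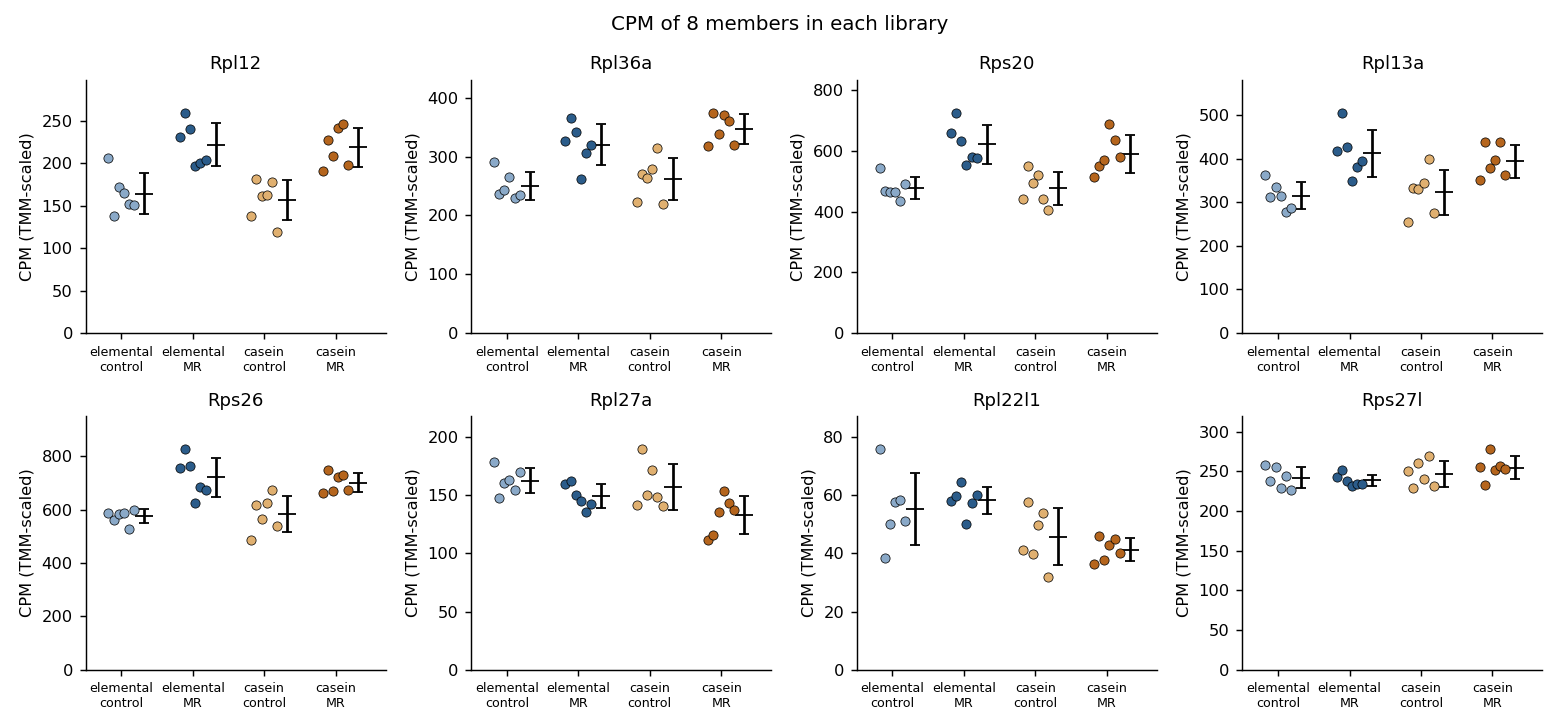
CPM (TMM-scaled) of 8 members in each library, with mean ± SD of 6 libraries. Rpl12, Rpl36a, Rps20, Rpl13a and Rps26 are higher on both MR diets on this scale and by library totals, Rpl22l1 is lower in casein MR than in elemental MR, and Rpl27a is lower in casein MR on the TMM scale but 0.02 above control in log2 by library totals.

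The member that fell was Rpl27a, a protein of the large subunit. It ran from 141.0 over 149 to 189 CPM in casein control and from 111 over 137 to 153 in casein MR, where the groups overlap and the lowest libraries were C_MR_3412 and C_MR_3419. The log2 fold change was -0.24 ± 0.08 (edgeR adjusted p = 0.0282). With elemental amino acids it ran from 148 over 162 to 178 and from 135 over 148 to 162 CPM (-0.12 ± 0.08, adjusted p = 0.358). The call was lost without C_C_3413, C_C_3429, C_MR_3412 or C_MR_3419 (adjusted p up to 0.122) and in a fit of only the casein groups (0.0817), and scaling by library totals turned the sign to 0.02 in both comparisons.

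The stalk proteins Rplp0, Rplp1 and Rplp2, which recruit the elongation factors, moved together in elemental MR. Rplp1 ran from 798 over 916 to 1001 CPM in elemental control and from 959 over 1064 to 1156 in elemental MR, and from 804 over 889.6 to 1068 and from 838 over 949 to 1021 with casein. The highest elemental control library thus lay within the MR range, and the highest casein control library lay above all casein MR libraries. In elemental MR the log2 fold changes were 0.23 ± 0.07 for Rplp0, 0.23 ± 0.07 for Rplp1 and 0.23 ± 0.07 for Rplp2 (edgeR adjusted p = 0.0368, 0.0316 and 0.0272). Their calls were lost in 6, 6 and 5 of the 24 fits, which left out E_C_3417, E_C_3427, E_C_3428, E_C_3430, E_MR_3403, E_MR_3405 or E_MR_3416 (adjusted p up to 0.102). In casein MR the values were 0.06 ± 0.07, 0.05 ± 0.07 and 0.15 ± 0.07, none called (adjusted p = 0.64, 0.69 and 0.135).

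Rpl5 and Rpl11 bind the 5S ribosomal RNA and, when free, the p53 ligase Mdm2. Rpl5 ran from 69.4 over 77.4 to 86.7 CPM in elemental control and from 78.8 over 95.2 to 105 in elemental MR, and from 67.4 over 77.3 to 97.6 and from 81.8 over 96.4 to 103 with casein. Its log2 fold changes were 0.29 ± 0.08 (edgeR adjusted p = 0.018) and 0.24 ± 0.08 (adjusted p = 0.0359). The first call was lost without E_MR_3405 (adjusted p = 0.054), and the second in 7 of the 24 fits, without C_C_3407, C_C_3421, C_C_3437, C_MR_3419, C_MR_3425, C_MR_3431 or C_MR_3433 (adjusted p up to 0.0874), as well as in a fit of only the casein groups (0.0567). Of its windows 85.4% occur in another gene. Rpl11 was 0.16 ± 0.07 and 0.11 ± 0.07, not called in either (adjusted p = 0.121 and 0.251).

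Rps6, the substrate of the S6 kinases, was counted at only 5.93 over 7.41 to 11.03 CPM in elemental control and 6.60 over 12.2 to 18.2 in elemental MR, and its log2 fold change of 0.55 ± 0.24 was not called (edgeR adjusted p = 0.136). It was called with 1 surrogate variable (0.48, adjusted p = 0.0471) and by library totals (0.69, adjusted p = 0.0354). In casein control it ran from 7.03 over 10.6 to 16.5 and in casein MR from 9.69 over 12.5 to 20.8 CPM (0.29 ± 0.23, adjusted p = 0.428). These levels rest on the 15.4% of its windows that no other gene holds, if reads were assigned uniquely. Rpsa, also known as the laminin receptor, was 0.19 ± 0.07 in elemental MR (edgeR adjusted p = 0.0567) and 0.13 ± 0.07 in casein MR (adjusted p = 0.191). Rps27a, made as a fusion to ubiquitin, was 0.16 ± 0.13 and -0.01 ± 0.13, Rpl10, which joins the large subunit last, 0.16 ± 0.08 and 0.00 ± 0.08, and Rpl41, the shortest of the proteins, 0.24 ± 0.09 and 0.10 ± 0.09, none of them called. Library E_C_3401 was high in several of these genes, and without it Rpsa and Rpl41 were called in elemental MR (edgeR adjusted p = 0.0137 and 0.0209). Rpl41 was also called without C_C_3436 (adjusted p = 0.0463). Rpsa was also called without E_MR_3420, C_C_3407, C_C_3413, C_C_3437 or C_MR_3412 (adjusted p up to 0.0498), with the filter of at least 1 CPM (0.0483), by DESeq2's Wald test (0.0402) and, like Rpl41, by library totals.

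**Figure D4:**
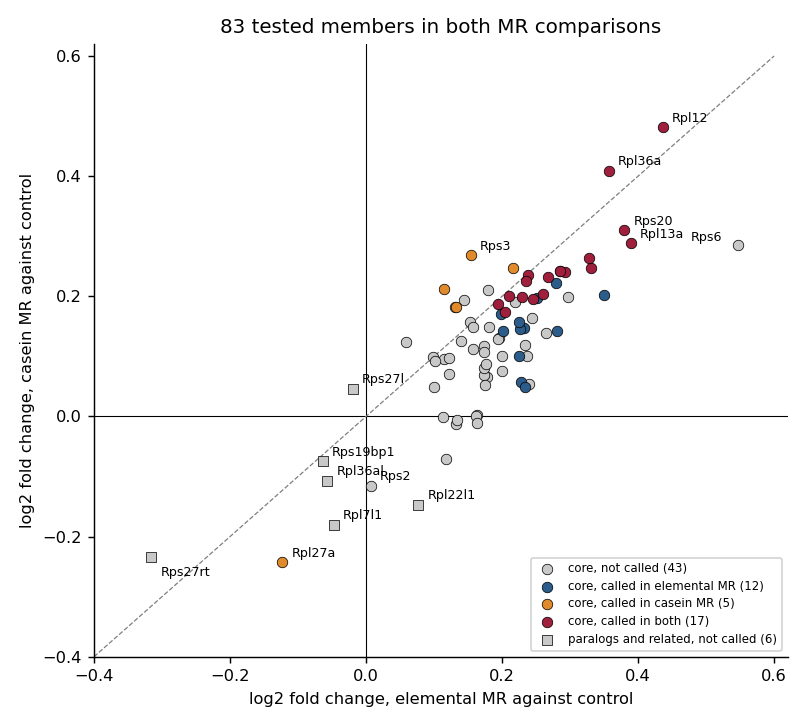
Log2 fold change of the 83 tested members in elemental MR (horizontal) and casein MR (vertical), on the TMM scale, with colours for calls at an adjusted p under 0.05 and squares for paralogs and related genes. The 17 members called in both lie at the upper right with Rpl12 and Rpl36a highest, most points lie below the dashed line of equal change, and 5 of the 6 squares lie below 0 on the vertical axis (0 of 6 by library totals).

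Among the 6 paralogs and related genes tested, 0 were called in either MR comparison (edgeR, with 0 at an unadjusted p under 0.05 in elemental MR and 1 in casein MR; 0 in elemental MR and 1 in casein MR by library totals), and their medians were -0.05 and -0.13, which library totals turned to 0.09 and 0.14. Over all genes 13.4% and 23.3% were called, and with 6 genes a count of 0 says little beside these shares. Relative to the median of all genes they stayed below 0 on both scales, at -0.05 and -0.14 by TMM and -0.05 and -0.13 by library totals.

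Pair by pair, Rpl22, which binds RNA beyond the ribosome, was 0.11 ± 0.06 in elemental MR (edgeR adjusted p = 0.242) and 0.21 ± 0.06 in casein MR (adjusted p = 0.0116), and Rpl22l1 was 0.08 ± 0.13 and -0.15 ± 0.13, not called. Rpl7 was called in both (0.23 ± 0.06 and 0.20 ± 0.06, edgeR adjusted p = 0.0117 and 0.0185), while Rpl7l1 ran from 35.1 over 41.4 to 42.9 CPM in casein control and from 32.7 over 35.6 to 37.4 in casein MR (-0.18 ± 0.07, adjusted p = 0.0513). That value stood just outside the threshold and was called by limma-voom (adjusted p = 0.0396) and in 7 of the 24 fits without 1 library (adjusted p down to 0.0258), while library totals turned its sign to 0.08. Rpl36al, the near copy of Rpl36a, was -0.06 ± 0.12 and -0.11 ± 0.12. The difference between a core gene and its paralog was not tested.

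Rps27 was 0.12 ± 0.07 and 0.07 ± 0.07 and its retrogene Rps27rt, at 1.78 to 4.80 CPM over all libraries, -0.32 ± 0.19 and -0.23 ± 0.19, none called. Rps27l, a target of p53, ran from 226 over 241 to 258 CPM in elemental control, 231 over 236 to 251 in elemental MR, 229 over 246 to 269 in casein control and 232 over 255 to 278 in casein MR, so the groups overlapped throughout (-0.02 ± 0.05 and 0.05 ± 0.05, not called). Rps27l and Rps27 were read at similar levels (mean 301 and 219 CPM per kilobase). Rpl26 was called in both comparisons (0.24 ± 0.08 and 0.24 ± 0.08, edgeR adjusted p = 0.0339 and 0.022), with calls lost in 6 and 2 of the 24 fits (adjusted p up to 0.0949 and 0.0672), namely without E_C_3417, E_C_3427, E_C_3428, E_MR_3403, E_MR_3405 or E_MR_3416 and without C_MR_3431 or C_MR_3433. Rps4x was also called in both (0.25 ± 0.07 and 0.20 ± 0.07, adjusted p = 0.0181 and 0.0415), with calls lost without E_C_3427 or E_MR_3405, and without C_C_3407, C_C_3421, C_C_3429, C_C_3437, C_MR_3419, C_MR_3425 or C_MR_3433 (adjusted p up to 0.0653 and 0.12). Among the Rps4x transcript windows, 72.25% also occur in another annotated gene. Rpl3 was 0.10 ± 0.09 and 0.09 ± 0.09 and Rpl39 0.18 ± 0.08 and 0.15 ± 0.08, none called. Without E_C_3401, where Rpl39 was high, its rise in elemental MR was called (edgeR adjusted p = 0.0277).

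Rpl3l, the muscle form of Rpl3, was at 0 to 0.486 CPM in the elemental and casein control libraries and in elemental MR, at 0 to 0.855 in 5 casein MR libraries and at 12.3 in C_MR_3438, the library with the muscle markers, so no change with diet was read from it. Rps19bp1 was -0.06 ± 0.08 and -0.07 ± 0.08, not called.

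Whether the effect of restriction differed between the casein and elemental diets was tested as the difference of the MR effects, casein minus elemental. Only the casein MR diet is labelled oxidized, so this test cannot tell the protein source from the oxidation. No member was called (0 of 83 with edgeR, 0 at an unadjusted p under 0.05, and 0 with DESeq2 and limma-voom), beside 2.34% of all genes (0.781% higher and 1.56% lower). The value was below 0 in 69 of 83 members (21 by library totals) with a median of -0.06, beside -0.00 over all genes. Library totals turned the median to 0.06 with all genes at 0.12, so relative to all genes it was -0.06 by TMM and -0.05 by library totals. For single members the standard error of this difference ran from 0.07 to 0.33 with a median of 0.11, so with 6 libraries a group most differences of the size of the median MR effect could not be called. For Rpl12 the difference was 0.04 ± 0.14 and for Rplp1 it was -0.18 ± 0.10 (edgeR adjusted p = 0.943 and 0.494).

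Casein and elemental diets were also compared directly. For the MR diets the casein was oxidized, so there too the protein source and the oxidation cannot be told apart. On the control diets 0 members were called (4 at an unadjusted p under 0.05, and 0 with DESeq2 and limma-voom), beside 0.104% of all genes (0.0298% higher and 0.0744% lower), with a median of 0.02. On the MR diets 1 member was called, lower with casein (7 at an unadjusted p under 0.05), beside 6.5% of all genes (2.72% higher and 3.78% lower), and the median was -0.04. By library totals this median was 0.07, with all genes at 0.11. The called member was Rpl22l1. It ran from 49.97 over 58.9 to 64.3 CPM in elemental MR and from 36.2 over 41.5 to 45.9 in casein MR, without overlap, as in 2.66% of all genes (1.58% were higher without overlap). The log2 difference was -0.50 ± 0.13 (edgeR adjusted p = 0.0164). On the control diets Rpl22l1 ran from 38.3 over 54.4 to 75.7 with elemental amino acids and from 31.96 over 45.4 to 57.6 with casein (-0.27 ± 0.13, adjusted p = 0.408). Its call on the MR diets held in each fit without 1 library and was lost by library totals alone (-0.39, adjusted p = 0.0535). Among the Rpl22l1 transcript windows, 58.9% also occur in another annotated gene. These comparisons share groups with the MR comparisons.

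Libraries of a group differed from each other, and nearly all core members moved together in this. The deviation of each gene from its group mean, in log2 CPM, was compared with the mean deviation of the other core members over the 24 libraries, which share depth and scaling. The median Pearson r was 0.88 over the 77 core members, and 75 of them (97.4%) were over 0.5, beside 413 of the 13358 other genes (3.09%). Rpl24, at -0.00, and Rpl6, at 0.37, were the exceptions. Between the lowest and the highest library of a group the core mean spanned 0.33 in elemental control (E_C_3428 to E_C_3401), 0.36 in elemental MR (E_MR_3420 to E_MR_3405), 0.34 in casein control (C_C_3407 to C_C_3436) and 0.20 in casein MR (C_MR_3438 to C_MR_3419). The SD of the core mean between libraries was 0.11, 0.13, 0.14 and 0.09 in the same order. The median log2 fold changes of the core members were 0.20 in elemental MR and 0.15 in casein MR. In elemental MR, E_MR_3403, E_MR_3405 and E_MR_3416 lay above the group mean and E_MR_3420, E_MR_3423 and E_MR_3424 below it.

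Of the other members, Rpl22l1 (0.70) and Rpl36al (0.74) moved with the core genes, Rps27l did so less (0.27), and Rpl7l1 (-0.08), Rps27rt (-0.04) and Rps19bp1 (-0.46) did not. Among genes that are no members the closest were Eef1b2 (0.95), a subunit of the elongation factor that reloads Eef1a1, Gas5 (0.86), a noncoding host of small nucleolar RNAs, Tpt1 (0.85) and Fau (0.83). These were found by ranking all genes and are a description over the same 24 libraries. The list of TOP mRNAs and translation partners had 12 of 21 over 0.5, the mitochondrial ribosomal proteins 4 of 77, the pseudogenes 4 of 46, hepatocyte markers 4 of 13, and Kupffer cell, lymphocyte, erythroid and muscle markers 0 each.

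**Figure D5:**
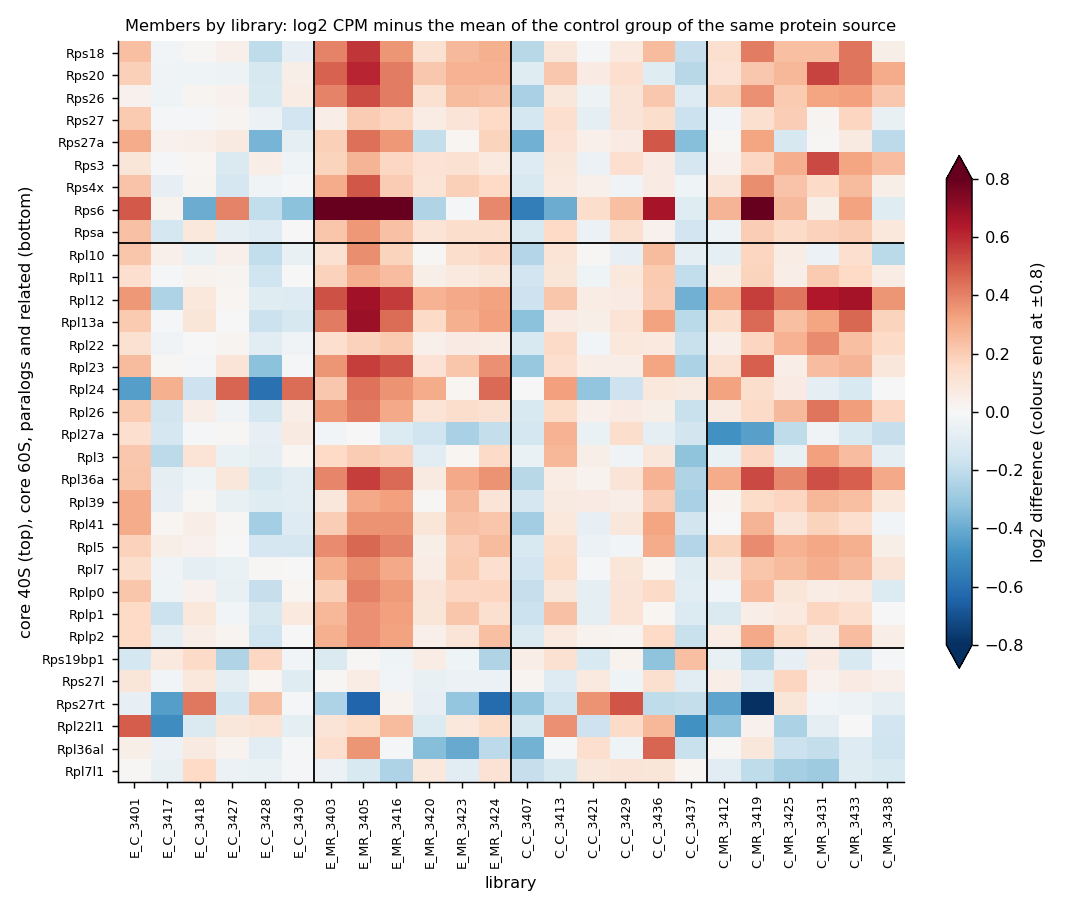
Log2 CPM of the tested members chosen for naming, and of Rpl24, in each library minus the mean of the control group of the same protein source, with colours ending at ±0.8. Rows are core 40S, core 60S, and paralogs and related genes, and columns are the 24 libraries in 4 groups. Most core members of a column shift together, with E_MR_3405 and C_MR_3419 high and C_C_3407 low. Rpl27a is an exception, at 0.00 in E_MR_3405 and -0.43 in C_MR_3419. Rpl24 is high in E_MR_3405 (0.43) but not low in C_C_3407 (-0.002), and Rps27rt and Rps19bp1 do not follow.

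Other genes of the system were read from lists. Among 21 further TOP mRNAs and translation partners, 8 were higher and 0 lower in elemental MR (4 higher by upper quartile scaling), beside 13.4% called over all genes. In casein MR 5 were higher and 1 lower, beside 23.3%. The medians were 0.14 in elemental MR and 0.07 in casein MR. The smallest p in elemental MR belonged to Npm1, a nucleolar chaperone (0.29 ± 0.07, edgeR adjusted p = 0.00309), Eef1b2 (0.28 ± 0.07, 0.00487) and Naca (0.26 ± 0.07, 0.0155). In casein MR they belonged to Eef1g (0.26 ± 0.05, adjusted p = 0.00084), the histone chaperone gene Nap1l1 (0.33 ± 0.08, 0.00234) and Npm1 (0.25 ± 0.07, 0.00505). Eef1b2 and Rack1 were the other higher genes in casein MR, and the lower gene was Eif3l (-0.15 ± 0.05, adjusted p = 0.0494), which was not called under any other scaling and was 0.11 by library totals. Fau, which makes a ribosomal protein as a fusion, was 0.24 ± 0.08 in elemental MR and 0.07 ± 0.08 in casein MR. The first was called (edgeR adjusted p = 0.042), though not by upper quartile scaling (0.052).

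Of 44 ribosome assembly genes, 4 were higher and 1 lower in elemental MR and 5 higher and 1 lower in casein MR, beside 13.4% and 23.3% called over all genes, with medians of 0.16 and 0.13. By library totals 27 and 34 were higher and 0 and 1 lower, with the medians of all genes moved to 0.14 and 0.27. Nop58 and Fbl of the box C/D particles that methylate ribosomal RNA (0.48 ± 0.11 and 0.45 ± 0.13, edgeR adjusted p = 0.00362 and 0.0177) and Gnl3, or nucleostemin (0.34 ± 0.10, 0.0187), led in elemental MR. In casein MR they were Gnl3 (0.47 ± 0.10, adjusted p = 0.000586), Mrto4 (0.43 ± 0.10, 0.00131), a ribosome assembly factor, and Heatr1, lower at -1.07 ± 0.25 (0.00239) and a mean of only 0.779 CPM in casein MR. The other calls were Taf1d, higher, and Rcl1, lower (-0.24 ± 0.07, adjusted p = 0.0316, but not called by library totals), in elemental MR, and Ebna1bp2, Wdr12 and Dkc1, higher, in casein MR.

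Of 22 genes that control ribosomal protein synthesis, 2 were higher and 0 lower in elemental MR and 5 higher and 1 lower in casein MR (8 and 0, and 17 and 1, by library totals). On the TMM scale 13.4% and 23.3% of all genes were called, so the list was near these shares. Eif4ebp1, the translation inhibitor that mTORC1 switches off, ran from 46.1 to 59.4 CPM in elemental control and from 73.1 to 91.3 in elemental MR, and from 48.7 to 55.2 and from 72.9 to 95.4 with casein, without overlap in either comparison. Its log2 fold changes were 0.68 ± 0.08 and 0.72 ± 0.08 (edgeR adjusted p = 7.29e-07 and 7.89e-08). Larp4b was 0.27 ± 0.08 in elemental MR (adjusted p = 0.0206) and -0.02 ± 0.08 in casein MR, and Mdm2 was 0.19 ± 0.07 (0.0649) and 0.22 ± 0.07 (0.0165). Mycn fell in casein MR (-1.61 ± 0.42, adjusted p = 0.00592) from a mean of 1.39 to 0.453 CPM. Mtor, Rps6kb1 and Larp1 were called in casein MR (0.26 ± 0.09, 0.21 ± 0.07 and 0.25 ± 0.09, adjusted p = 0.0332, 0.0345 and 0.0435).

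The ribosomal proteins of the mitochondrion are encoded by a separate set of 77 nuclear genes. They gave 5 higher and 0 lower in elemental MR, beside 13.4% called over all genes. In casein MR 8 were higher and 7 lower, beside 23.3%. The median of the set was 0.01 in both. By library totals 32 and 54 were higher and 0 lower, and the median relative to all genes was 0.02 and 0.00. Mrpl15 rose in both (0.41 ± 0.05 and 0.39 ± 0.05, edgeR adjusted p = 4.93e-06 and 3.14e-06), from 56.9 to 67.3 CPM in elemental control to 77.8 to 84.6 in elemental MR, and from 54.9 to 64.4 to 73.7 to 86.9 with casein, without overlap. Mrps9 (0.31 ± 0.06, adjusted p = 0.00141) and Mrps35 (0.24 ± 0.06, 0.0105) followed in elemental MR, with Mrpl24 and Mrpl12 as the other calls, and Mrpl14 (0.31 ± 0.06, 0.00051) and Mrpl45 (0.26 ± 0.05, 0.000615) in casein MR. Of 69 pseudogenes of cytosolic ribosomal proteins 46 passed the filter, with Rpl28-ps1 higher in elemental MR and Rpl17-ps5 lower in casein MR and medians of 0.13 and 0.14.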

How the data were processed

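The authors deposited raw read counts per Ensembl gene for 24 liver libraries of total RNA, and a normalized signal, which was checked to equal those counts divided by 1 size factor per library (0.745 to 1.32) and was used for symbols only. Aligner, counting tool, strand setting and build: not given in the sources used here. The counts went through edgeR 4.0.16 in R 4.3.3, using filterByExpr (13441 genes kept), TMM and 1 quasi-likelihood model of the 4 group means, with Benjamini-Hochberg adjustment over all genes within each of 5 comparisons and calls at an adjusted p under 0.05. The prior count for log2 CPM was 2. The members, lists and splits were chosen with earlier results of these data known, and the division into core and related genes was made by name after the values were seen. Members named in the text are the 6 largest rises and falls among called members in each MR comparison, 4 in other comparisons, fixed genes and paralog pairs, and the highest and lowest in CPM. For other lists they are the 3 smallest p in each MR comparison. Rpl38, Rpl24, Rpl10a, Rpl35, Rpl6, Rps19, Rps27rt, the other members called in 1 or both MR comparisons and the genes ranked by likeness were named after their values were seen, as were Mtor, Rps6kb1, Larp1, Fau and the other list genes given without a rank. Lengths and shared windows came from GENCODE vM21 and start windows from RefSeq, GRCm38.p6.

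Depth was 13458941 to 20762532 counts per library, with a common biological coefficient of variation of 0.159. On simulated counts (13279 genes) 28.4% of 1.25-fold and 79.1% of 1.5-fold changes were called in elemental MR, 29.9% and 82.1% in casein MR, and 1.49% and 44.8% in the difference of the MR effects. The simulation changed 200 genes per comparison, none of them low in counts, and drew each gene independently. In the data more genes were called in these comparisons and core members moved together, so these rates do not give the power for the members. Of the gene symbols, 13002 stand in the deposited signal table, and 2119 were added by gene ID from GENCODE. Of those added, 4 (Rps3a3, Rps4l, Rpl37rt and Rpl6l) match the pattern and are no members. Identical libraries were looked for (0 pairs), and 0 per-sample columns were left unused. Alternatives were DESeq2 1.42.0 size factors and Wald test, upper quartile scaling, library totals, TMM without the members, other filters, limma-voom (limma 3.58.1), 1 surrogate variable (sva 3.50.0), fits of only the groups compared, an adjusted p under 0.01, and leaving out each library. Some results are not reported here.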

Additional observations from a re-analysis of the deposited data

Results flagged for a closer look

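In 140 sets of 6 libraries, 6 had a highest library that lay farther from the others than Dixon's limit for 6 values allows, and chance gives about 1 in 20 sets. Library E_C_3401 was concerned in 3 of them. Its share of reads on the members was 2.03%, against 1.71% to 1.78% in the other elemental controls, its Rpl7 was 354.7 CPM against 307 to 325, and its Rpl39 163.6 CPM against 124 to 134. Rpl7l1 was 39.8 CPM in E_C_3418, against 34.1 to 35.8 in the other elemental controls. Among casein MR libraries, Rps6 was 20.8 CPM in C_MR_3419, against 9.69 to 12.98 in the others. Rpl3l was 12.3 CPM in C_MR_3438, against 0 to 0.855, and this library also held the high muscle markers. The part of these libraries' makeup in the values was not tested.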

How the results depend on the processing

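Scaling by library totals alone gave 68 members called in elemental MR, 73 in casein MR and 2 on the MR diets, and medians of 0.34 and 0.40 in the MR comparisons and 0.0619 in the difference of the MR effects, where it turned the sign. It also turned the sign of Rpl7l1 (0.0953 in elemental MR and 0.0789 in casein MR), Rpl36al (0.0844 and 0.155), Rps19bp1 (0.0762 and 0.183) and Rpl27a (0.0184 and 0.0172), of Rps27l in elemental MR (0.121), and of Rps27a (0.254), Rpl22l1 (0.115) and Rps27rt (0.0203) in casein MR. An adjusted p under 0.01 left 6, 5 and 0 members in elemental MR, casein MR and on the MR diets. Without a filter on low counts 2 were called on the MR diets, and a fit of only the 2 groups compared called 13 in casein MR, with fewer samples behind the spread. Rps27a in casein MR was 0.00967 by limma-voom, and Rpl10 in casein MR was -0.00237 with 1 surrogate variable. For these values the cause was not tested. The shares of all genes called under these settings are not given here.

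Leaving out 1 library at a time gave 9 to 38 members in elemental MR and 11 to 28 in casein MR, with no share of all genes given beside these counts. The fold change changed sign in some of these fits for Rpl22l1 (-0.00848 to 0.189), Rpl36al (-0.154 to 0.00418) and Rps27l (-0.0365 to 0.000378) in elemental MR, and for Rps27a (-0.0775 to 0.112), Rpl10 (-0.0329 to 0.0657) and Rpl36al (-0.167 to 0.00740) in casein MR. Of 28 calls of named members, 15 held in every such fit. Over all 2244 alternatives of 66 named results, 2107 kept direction and side of the threshold, 65 lost the call, 43 gained it and 29 changed sign. No paired analysis was possible because each library carries a number of its own and no number links the groups. Depth limits the members with few counts, such as Rps6, Rpl24 and Rps27rt, and whether shared sequence lowers their counts was not tested.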
